A study of Mus musculus with 4 samples.

Results

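The 9 genes followed here belong to the immediate-early response and were read across B-lineage cell clusters of mouse Peyer's patches: Jun, Junb, Jund, Fos, Fosb, Ier2, Klf2, Klf6 and Socs3. They were taken by name, 9 of the 31053 genes in the count matrices, and were read in the cells of each deposited cluster number and in each SFB group. The genes and the lists below were chosen with earlier results of these data known. Counts of called genes beside shares of all genes are therefore a description without a test. SFB are segmented filamentous bacteria, gut commensals that attach to the small intestinal epithelium. The mice were female, wild-type and from Taconic, and the groups differed by carrying SFB (SFB-positive) or not (SFB-negative). Each group has 2 libraries, each of cells sorted for the leukocyte protein CD45 and made with the 10x Genomics 3′ v3.1 chemistry after 10 minutes in EDTA and 30 minutes of enzyme digestion at 37 °C. Cells of 5 mice were pooled, and the sources used here do not say whether the libraries of one group are separate pools. The p-values therefore rest on the spread between libraries, which may be technical. With 4 libraries, the edgeR tests within clusters took this spread mainly from all genes together and little from each gene alone.

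As background, immediate-early genes are transcribed within minutes of a stimulus from factors already present in the cell, without new protein synthesis. Jun and Fos proteins pair through leucine zippers to form AP-1, a transcription factor with roles in lymphocyte activation and stress responses. KLF2 is a zinc-finger factor that keeps lymphocytes quiescent and drives trafficking receptors such as S1pr1, and SOCS3 is a feedback inhibitor of cytokine receptors that signal through STAT3. Enzyme digestion and warming of tissue are known to induce many of these genes during preparation.

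The libraries held 7198366 and 47273320 UMIs (unique molecule counts) in SFB-negative replicates 1 and 2, and 6979187 and 83600989 in SFB-positive replicates 1 and 2. The count files name Cell Ranger 6.0.0 for replicate 1 and 7.0.0 for replicate 2, so the replicate number is also a technical batch. Between any pair of libraries at most 40 barcodes were shared. Clusters 0 and 1 had most of the listed markers of naive-like B cells, cluster 3 of germinal-centre-like B cells in cycle, cluster 4 of memory-like B cells and cluster 6 of plasma-like cells. Against the mean of the other clusters, Bach2 was lower in clusters 0 and 1, Nt5e in cluster 4 and Irf4 in cluster 6. Bcl6 averaged 66.3 CPM in cluster 3 and 75.1 CPM in cluster 1. Cluster 2 stayed unnamed, with Srm and Myc among its leading genes. Its levels of the naive-list genes Fcer2a and Ccr7 (327.8 and 1178 CPM) were near those of cluster 1 (326.5 and 1227 CPM). Cluster 5, with 1, 258, 0 and 209 cells in SFB-negative 1, SFB-negative 2, SFB-positive 1 and SFB-positive 2, is nearly a replicate 2 cluster. Tests were made in clusters 0 to 4, which have at least 50 cells in every library. In these clusters the summed level of T-cell markers was 9.26 to 36.4 CPM (UMIs of a gene per 1000000 UMIs of that library and cluster), of myeloid markers 2.25 to 35.8 CPM and of epithelial markers 4.40 to 112 CPM, whereas the B-cell gene Cd79a averaged 1751 to 2945 CPM over the libraries.

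Among clusters 0 to 4, all 9 genes were highest in the naive-like cluster 1 and lowest, or nearly so, in the germinal-centre-like cluster 3. Of the 9, 8 had their highest level of clusters 0 to 4 in cluster 1 in 4 of 4 libraries, and Socs3 in 3 of 4, with cluster 4 above it in the remaining one. The lowest level of clusters 0 to 4 lay in cluster 3 in 4 of 4 libraries for every gene other than Jun. Jun was lowest there in 2 libraries and in cluster 0 in the other 2. Mean levels in the plasma-like cluster 6, which has few cells, were below those of cluster 3 for Junb, Ier2, Klf2, Klf6 and Socs3. For Jun, Jund, Fos and Fosb they were above. Cluster 1 over cluster 3, taken within a library, was 9.98 to 15.3-fold for Klf2, 6.76 to 13.2-fold for Fos and 5.53 to 15.5-fold for Jun, and 2.45 to 4.31-fold for Klf6. The clusters were built from the same cells and genes, and Klf2, Jun and Fos are the 2nd, 5th and 6th of cluster 1's leading genes beside the heat shock genes Hspa1a, Dnajb1 and Hspa1b. The order of clusters is therefore a description without a test.

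**Figure D1:**
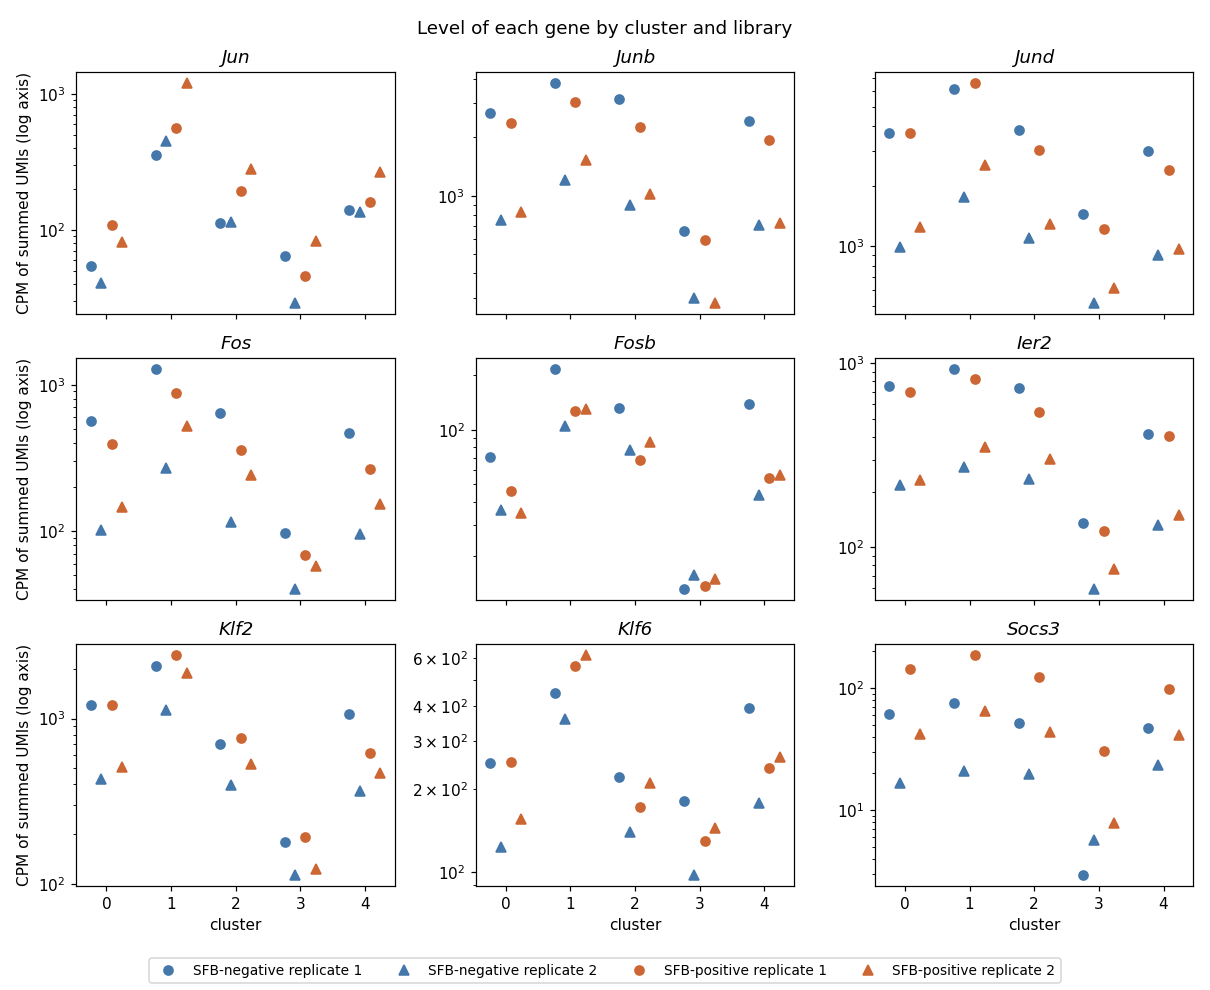
Level of each gene (CPM of the UMIs summed per library and cluster, log axis) in clusters 0 to 4, with circles for replicate 1, triangles for replicate 2, blue for SFB-negative and orange for SFB-positive. Every gene peaks in cluster 1 in at least 3 of 4 libraries. For Junb, Jund, Fos, Ier2 and Klf2 the circles lie above the triangles within each group in every cluster.

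Between the naive-like clusters the genes differed in steepness. Jun, the main AP-1 partner subunit, was 5.11 to 14.8-fold higher in cluster 1 than in cluster 0 within a library, whereas Ier2, a nuclear regulator induced with AP-1, was 1.18 to 1.53-fold higher and Socs3 1.24 to 1.54-fold. Fosb, a Fos paralogue, was 2.76 to 3.75-fold higher, Fos 2.21 to 3.62-fold and Klf6 1.78 to 3.93-fold. For Jun the 4 libraries of cluster 1 did not overlap with those of any of the other four clusters. For each of the other 8 genes the range of the 4 libraries in cluster 1 overlapped with that of the next cluster.

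Jun rose with SFB in cluster 0. It lies at chr4:95049034-95052222 on the minus strand of GRCm38 and has a single exon in the GENCODE annotation. In cluster 0 its level was 54.6 and 40.9 CPM in SFB-negative replicates 1 and 2, and 109.9 and 81.6 CPM in SFB-positive replicates 1 and 2. Both SFB-positive libraries lay above both SFB-negative ones. The difference was 0.83 ± 0.25 on the log2 scale (SE, edgeR quasi-likelihood test with the replicate number as a block, Benjamini-Hochberg adjusted p = 0.045). With Socs3 it made 2 of 9 members called higher in cluster 0, where 0.236% of the 10612 genes tested were called higher. Since the members were chosen with earlier results of these data known, this contrast is no test.

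In cluster 1 Jun measured 356.7 and 453.1 CPM in the SFB-negative libraries and 561.1 and 1206 CPM in the SFB-positive ones. The groups did not overlap, and the difference of 0.94 ± 0.27 did not pass the test (edgeR adjusted p = 0.12). In cluster 2 the levels were 113.6 and 114.2 CPM against 192.3 and 280.8 CPM, again without overlap, with a difference of 0.86 ± 0.30 (edgeR adjusted p = 0.18). In the memory-like cluster 4 they were 141.5 and 135.2 CPM against 161.9 and 268.7 CPM (0.50 ± 0.28, edgeR adjusted p = 0.58). The germinal-centre-like cluster 3 was the one where the replicate numbers disagreed: Jun was 64.5 CPM without and 46.5 CPM with SFB in replicate 1, and 29.3 CPM without and 82.7 CPM with SFB in replicate 2 (edgeR adjusted p = 0.49).

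Jun is a leading gene of cluster 1 and may itself help to part it from cluster 0. Both naive-like clusters were therefore also summed as a single class, a choice made after seeing the data. There Jun measured 160.0 and 199.1 CPM in SFB-negative and 302.8 and 707.5 CPM in SFB-positive libraries, and the difference was 1.24 ± 0.27 (edgeR adjusted p = 0.032). Cluster 1 held 26.9% and 23.9% of the table's cells without SFB and 33.3% and 36.6% with SFB. For cluster 0 the shares were 53.3% and 48.5% against 43.5% and 30.8%. The summed difference holds both this mix of clusters and the level within each, and their parts were not tested. In that class 2 of 9 members, Jun and Socs3, were called higher, against 0.106% of 11271 genes. Both calls of the summed class were lost without the block (edgeR adjusted p = 1.00 for each). Fits with 1 of the 4 libraries left out cannot hold the block, so they cannot decide whether the calls rest on 1 library. With the block, the DESeq2 test kept both calls (adjusted p = 0.0020 for Jun and 7.4e-04 for Socs3). They were also kept with DESeq2 size factors, without the low-count filter, in cells under 3000 genes and without TMM. The cluster 0 call of Jun was lost in 5 other fits that kept the 4 libraries, with adjusted p = 0.077 without the filter on low counts, 0.078 in cells under 3000 genes, 0.24 without TMM scaling, and 1.00 both with DESeq2 and without the block. In cluster 1 Jun was called with DESeq2 size factors (edgeR adjusted p = 0.050), without the low-count filter (0.035) and without TMM (0.037). Without the block no member was called in clusters 0 to 4, as were 0% of all genes, and no member had an unadjusted p under 0.05. An exact permutation test on 2 against 2 libraries cannot go below p = 0.333, two-sided, which is the value Jun gave in clusters 0, 1, 2 and 4.

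**Figure D2:**
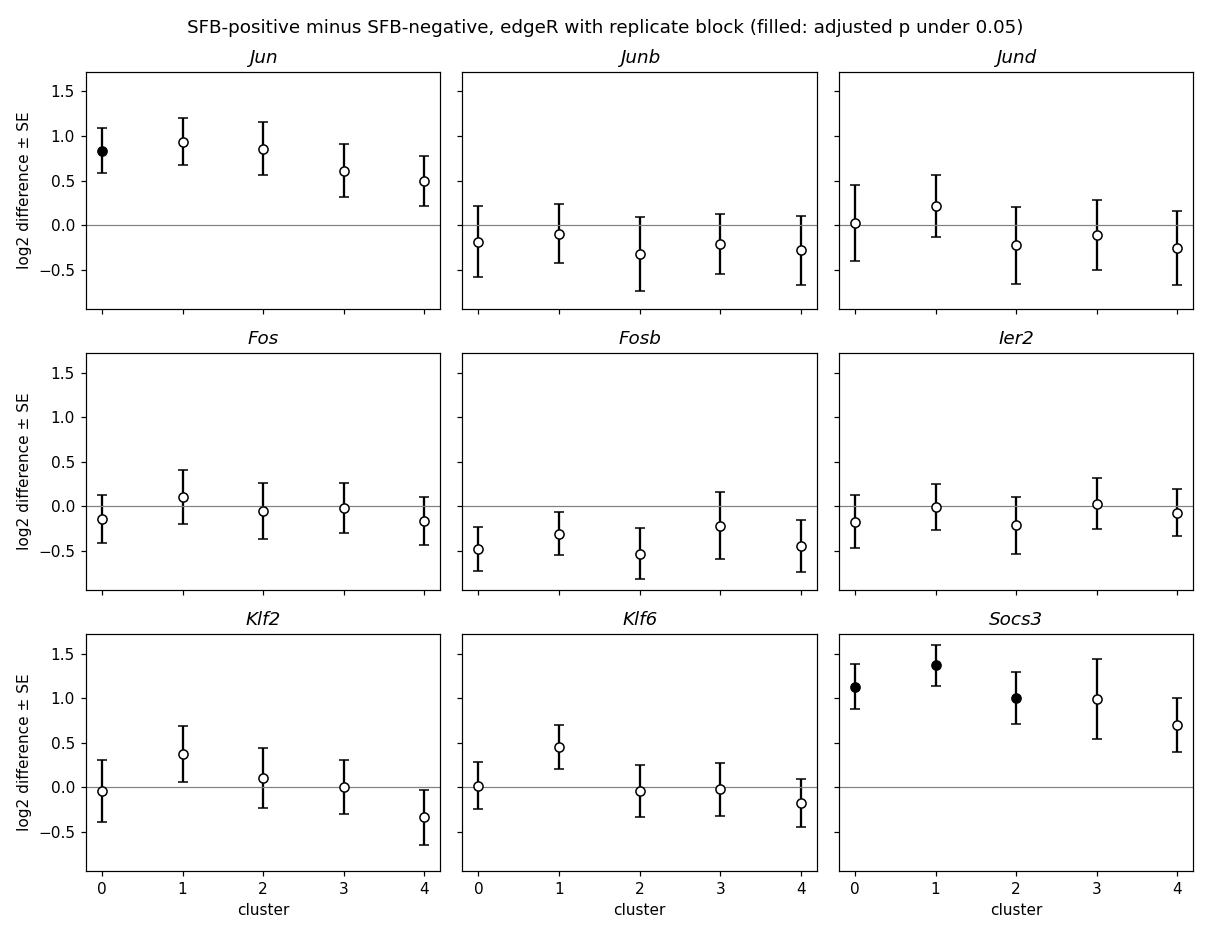
Difference between SFB-positive and SFB-negative libraries (log2, edgeR with replicate block) for each gene in clusters 0 to 4, with bars for 1 SE and filled points for adjusted p under 0.05. The filled points are Socs3 in clusters 0, 1 and 2 and Jun in cluster 0, and all points of Junb and Fosb lie below 0 (Junb in cluster 1 is 0.0078 without TMM).

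Socs3 rose with SFB in both naive-like clusters and in cluster 2, with the largest differences of the 9 members there. The gene lies at chr11:117966079-117970047 on the minus strand. In cluster 0 its level was 60.9 and 16.6 CPM in SFB-negative replicates 1 and 2 and 141.9 and 42.5 CPM in SFB-positive replicates 1 and 2. The groups overlap because replicate 1 lies above replicate 2 in both, and within each replicate number the SFB-positive library was higher. The difference was 1.13 ± 0.25 (edgeR adjusted p = 0.0011).

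In cluster 1 Socs3 measured 75.8 and 20.9 CPM without SFB and 185.5 and 65.3 CPM with SFB, a difference of 1.37 ± 0.23 (edgeR adjusted p = 0.0023). It was the one member of 9 called higher there, against 0.130% of 9990 genes. In cluster 2 the levels were 51.8 and 19.7 CPM against 123.7 and 43.4 CPM, a difference of 1.00 ± 0.29 (edgeR adjusted p = 0.047), again 1 of 9 members, against 0.258% of 8913 genes. All 3 calls rest on the replicate block: without it their adjusted p was 1.00, and with DESeq2 the adjusted p was 0.15 in cluster 0, 1.00 in cluster 2 and 0.0087 in cluster 1. The cluster 2 call was also lost without the low-count filter (adjusted p = 0.075), in cells under 3000 genes (0.081) and without TMM (0.15). With any 1 of the 4 libraries left out the block could not be fitted. Without SFB-positive replicate 1 this unblocked difference of Socs3 was -0.17 in cluster 0 and -0.028 in cluster 2. Within replicate 2 alone the difference was 1.03 in cluster 0 and 0.78 in cluster 2.

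In clusters 3 and 4 Socs3 leaned the same way without passing the test. The memory-like cluster 4 had 47.2 and 23.4 CPM without SFB and 98.6 and 41.3 CPM with it (0.70 ± 0.30, edgeR adjusted p = 0.37). Cluster 3 had 2.93 and 5.71 CPM against 30.6 and 7.90 CPM (1.00 ± 0.45, edgeR adjusted p = 0.43), where SFB-negative replicate 1 held 2 UMIs of Socs3 in all. No member was called in cluster 3 or cluster 4, where 0.375% of 9876 and 0.282% of 8500 genes were called higher, and where 2 and 1 of 9 members had an unadjusted p under 0.05 in edgeR, beside 9.24% and 10.0% of all genes tested. DESeq2 called no member in either cluster. The difference of Socs3 between SFB groups was not shown to depend on the cluster by the test of all cluster-by-SFB terms together (edgeR adjusted p = 0.39), nor was that of Jun (0.45).

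Jun and Socs3 are shown with the sequence before their transcription start because they are the members that rose, and Fos and Klf6 beside them for comparison. The 250 bases before the start are from RefSeq for GRCm38.p6, which matched 8 of the 9 genes; Ier2 had no entry. The minus-strand windows of Jun and Socs3 are chr4:95052223-95052472 and chr11:117969367-117969616, and the plus-strand windows of Fos and Klf6 are chr12:85473640-85473889 and chr13:5861239-5861488. Capitals mark TGACATCA (the AP-1-like element known from the Jun promoter), TTCNNNGAA (a STAT site) or TATAAA (the core element bound by TBP), each searched on both strands.
Jun: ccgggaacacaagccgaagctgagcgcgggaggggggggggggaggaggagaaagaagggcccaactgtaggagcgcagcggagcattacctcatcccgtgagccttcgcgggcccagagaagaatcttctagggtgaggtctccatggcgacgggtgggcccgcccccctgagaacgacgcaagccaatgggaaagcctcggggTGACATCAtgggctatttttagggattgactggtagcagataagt
Socs3: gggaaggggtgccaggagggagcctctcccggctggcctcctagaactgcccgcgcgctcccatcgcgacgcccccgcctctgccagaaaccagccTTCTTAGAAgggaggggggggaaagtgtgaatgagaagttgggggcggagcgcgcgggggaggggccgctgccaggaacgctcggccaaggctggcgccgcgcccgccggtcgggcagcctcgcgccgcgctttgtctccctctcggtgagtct
Fos: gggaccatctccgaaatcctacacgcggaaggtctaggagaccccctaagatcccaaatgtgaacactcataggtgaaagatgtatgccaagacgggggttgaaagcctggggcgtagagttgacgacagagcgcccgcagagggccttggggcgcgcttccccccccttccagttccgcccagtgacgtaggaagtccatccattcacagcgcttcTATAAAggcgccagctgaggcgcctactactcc
Klf6: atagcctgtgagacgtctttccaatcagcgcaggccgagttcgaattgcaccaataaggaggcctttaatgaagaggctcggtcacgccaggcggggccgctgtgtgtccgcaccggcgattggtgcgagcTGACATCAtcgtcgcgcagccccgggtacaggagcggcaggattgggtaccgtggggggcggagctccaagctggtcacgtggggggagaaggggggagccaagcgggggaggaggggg
TGACATCA was found in Jun at -45 to -38 and in Klf6 at -119 to -112 from the start, and in 2.93% of 32851 promoters of this length. TTCNNNGAA was found among the members in Socs3 alone, at -154 to -146, and in 7.02% of promoters. TATAAA was found in Fos alone, at -33 to -28, and in 12.4% of promoters. The cAMP response element TGACGTCA (1.55% of promoters), the AP-1 site TGANTCA (6.75%) and the CArG box bound by SRF (1.47%) were not found in these windows of the 8 genes. The Jund window lies at a RefSeq start upstream of the annotated gene and held none of the motifs searched. The Socs3 window lies inside the annotated gene, because its RefSeq start is downstream of the annotated gene start. Positions in Socs3 are counted from that RefSeq start. GGGCGG, the GC box, was found in 6 of 8 members and in 32.7% of promoters, and CCAAT in 3 of 8 and in 33.8%. A match of letters is a description and not a measured site. Bases further than 250 before the start were not searched, so motifs not found here may lie there.

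The remaining AP-1 subunits and Ier2 were not called in any of clusters 0 to 4. Junb, a Jun paralogue (chr8:84974484-84978718), had a difference of -0.32 to -0.09, below 0 in 5 of 5 clusters, although 0.0078 in cluster 1 without TMM. In cluster 0 it measured 2676 and 752.9 CPM without SFB and 2356 and 824.1 CPM with SFB, so that the level by UMI totals was lower in replicate 1 and higher in replicate 2. Jund, the most constitutive of the Jun proteins (chr8:70698949-70700616), differed by -0.26 to 0.22, and in cluster 1 measured 6148 and 1769 CPM without SFB and 6619 and 2563 CPM with it. Ier2 (chr8:84661331-84662852) differed by -0.21 to 0.03, with 755.1 and 218.6 CPM in cluster 0 without SFB and 699.5 and 231.2 CPM with it. Their adjusted p lay between 0.88 and 1.00 in edgeR.

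Fos went opposite ways in replicate 1 and replicate 2. Fos, the partner of Jun in AP-1, lies at chr12:85473890-85477273. In cluster 1 it measured 1279.9 CPM without and 874.8 CPM with SFB in replicate 1, and 271.6 CPM without and 525.5 CPM with SFB in replicate 2. In cluster 0 the values were 561.9 against 395.7 CPM in replicate 1 and 101.0 against 145.1 CPM in replicate 2. Within replicate 1 Fos was lower with SFB in 5 of 5 clusters, by log2 differences of -0.83 to -0.45 after scaling, and within replicate 2 it was higher in 5 of 5, by 0.20 to 0.74. The pooled difference was -0.16 to 0.10 (edgeR adjusted p from 0.91 to 1.00), a value that describes neither pair of libraries.

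Fosb (chr7:19302696-19310051) had a difference below 0 in 5 of 5 clusters, from -0.53 to -0.21 (edgeR adjusted p from 0.50 to 0.96). In cluster 4 it measured 138.4 CPM without and 54.0 CPM with SFB in replicate 1, and 44.0 CPM without and 56.5 CPM with SFB in replicate 2. Within replicate 1 it was lower with SFB in 4 of 5 clusters and within replicate 2 in 3 of 5. Jun, in contrast, was higher with SFB in 4 of 5 clusters in replicate 1 and in 5 of 5 in replicate 2, and Socs3 in 5 of 5 in both.

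**Figure D3:**
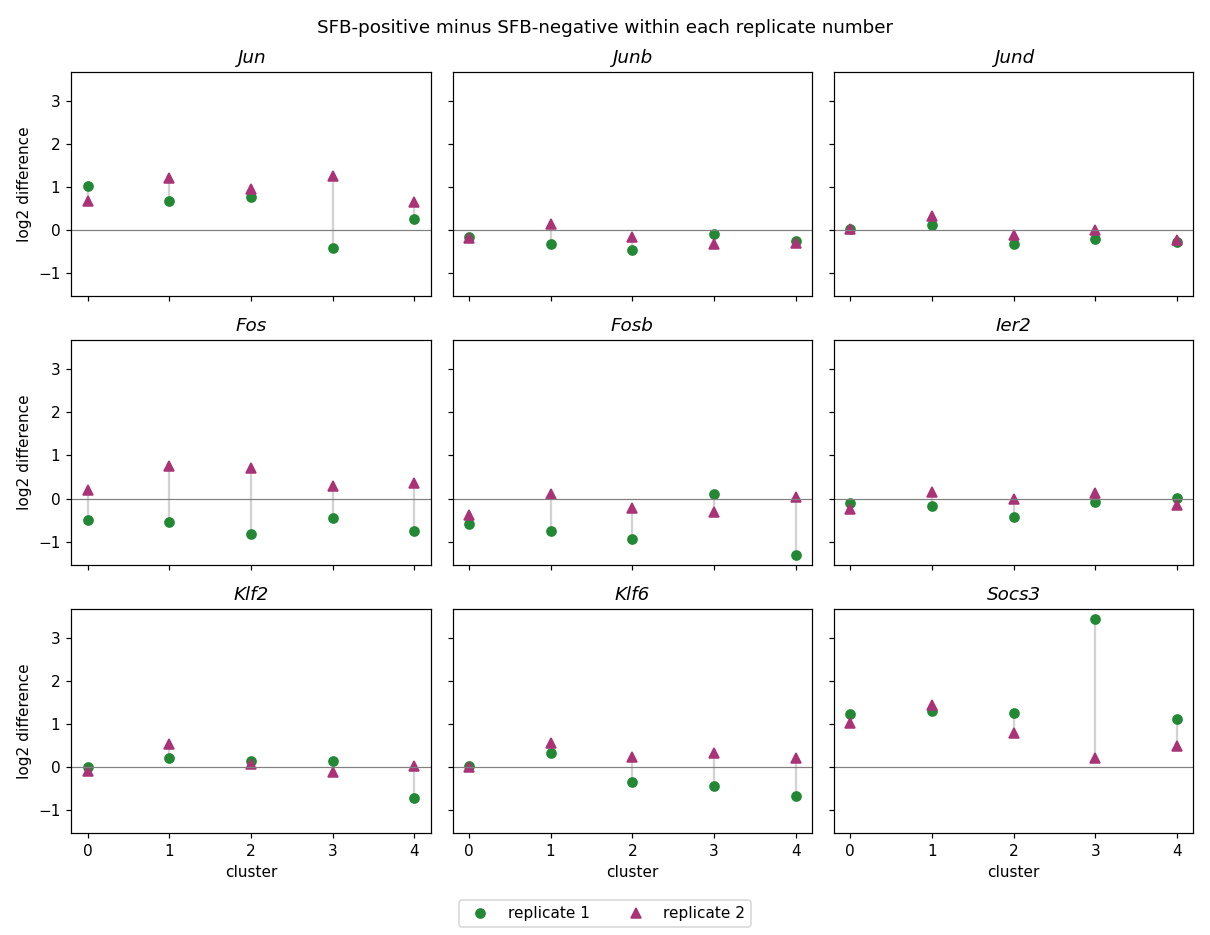
Difference between the SFB-positive and the SFB-negative library (log2 after TMM scaling) within replicate 1 (green circles) and within replicate 2 (purple triangles), for each gene and cluster, with a grey line joining the pair. For Fos the circles lie below 0 and the triangles above 0 in 5 of 5 clusters, and for Socs3 both lie above 0 in 5 of 5.

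The Krüppel-like factors did not pass the test in any single cluster, and their difference depended on the cluster. Klf2 (chr8:72319033-72321656) measured 2091 and 1125 CPM in cluster 1 without SFB and 2412 and 1874 CPM with it, higher with SFB in both replicate numbers (0.37 ± 0.31, edgeR adjusted p = 0.87). In the memory-like cluster 4 it measured 1066 CPM without and 621.9 CPM with SFB in replicate 1, and 365.4 CPM without and 468.6 CPM with SFB in replicate 2 (-0.34 ± 0.31, edgeR adjusted p = 0.80). The test of the 4 cluster-by-SFB terms together gave an edgeR adjusted p of 5.4e-04 for Klf2, with a shift of 0.41 relative to cluster 0 in cluster 1 and of -0.23 in cluster 4.

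Klf6 (chr13:5861482-5870394), a stress-induced relative of Klf2, was likewise highest in cluster 1 and lowest in cluster 4 in its SFB difference relative to cluster 0. It measured 445.6 and 359.0 CPM in cluster 1 without SFB and 559.1 and 612.7 CPM with it, with no overlap (0.45 ± 0.24, edgeR adjusted p = 0.70). In cluster 4 it measured 393.1 and 178.0 CPM without SFB and 239.4 and 261.6 CPM with SFB, with overlap (-0.17 ± 0.27). Its test of cluster dependence gave an edgeR adjusted p of 0.012, with cluster 1 again highest against cluster 0 (0.44) and cluster 4 lowest (-0.10). Jund passed as well (edgeR adjusted p = 0.0031), at 0.19 above cluster 0 in cluster 1 and -0.28 relative to it in cluster 4. These 3 of 9 members stand beside 3.43% of 10703 genes called by that test. Without replicate terms none of the 9 passed, and the adjusted p of Klf2, Jund and Klf6 was 1.00. Since Klf2, Jun and Fos were among the leading genes of cluster 1, which cells entered it and the level within it cannot be told apart.

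Several members differed more between replicate numbers than between SFB groups. Junb was 2.03 to 3.49-fold higher in replicate 1 than in replicate 2 across clusters 0 to 4 in the SFB-negative libraries and 2.40 to 3.55-fold in the SFB-positive ones. For Jund the ranges were 2.59 to 3.70-fold and 2.25 to 3.67-fold, and for Ier2 2.10 to 3.61-fold and 1.83 to 3.75-fold. Fos was 2.23 to 5.46-fold higher in SFB-negative replicate 1 and 1.35 to 3.38-fold in SFB-positive replicate 1. Socs3 was 3.08 to 4.4-fold higher in SFB-positive replicate 1, and its ratio was 0.475 to 3.86 without SFB, with the 0.475 in cluster 3. Jun did not share this: its ratio of replicate 1 to replicate 2 was 0.838 to 2.04 without SFB and 0.574 to 1.67 with SFB. Over all genes with reads in the 4 libraries the median log2 ratio of replicate 2 to replicate 1 was 0.01 to 0.03 without SFB and -0.14 to 0.05 with SFB. TMM scaling holds such a median near 0. In cluster 0 the 5th to 95th percentiles were -1.71 to 2.38 without SFB and -1.74 to 2.63 with SFB. Without SFB the members lay there at percentile 0.901 (Fos), 3.58 (Jund), 3.82 (Socs3), 4.13 (Junb) and 4.45 (Ier2). Klf2 lay at 8.23, Klf6 at 17.9, Fosb at 19.3 and Jun at 36.7. The software version, the depth and the antibody tags counted (15 in each replicate 1 library, 0 in replicate 2) move together here and cannot be told apart. No label says that the handling of the replicates differed.

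**Figure D4:**
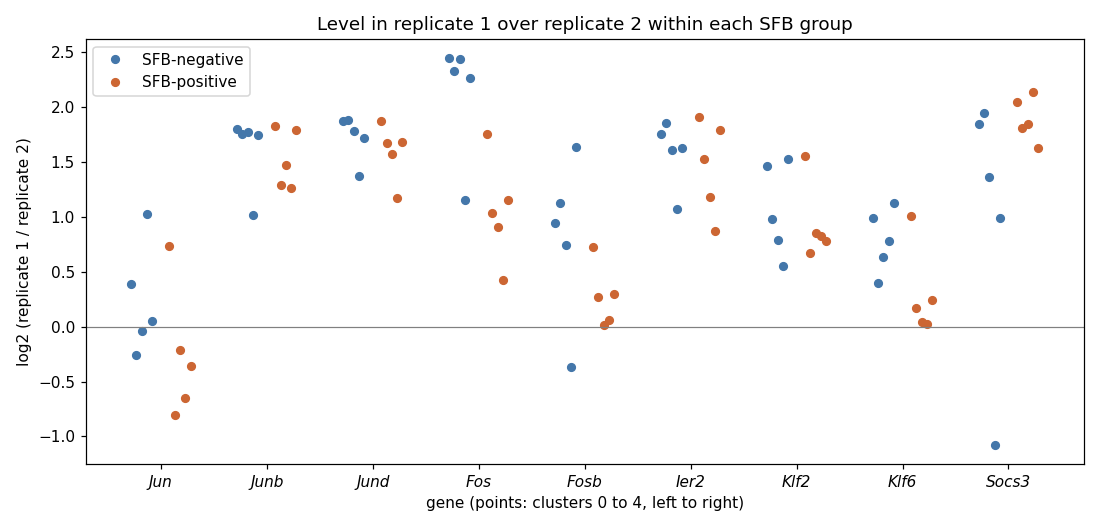
Level in replicate 1 over replicate 2 (log2, after TMM scaling) within the SFB-negative (blue) and the SFB-positive (orange) group, with a point for each of clusters 0 to 4 from left to right. Junb, Jund, Fos, Ier2, Klf2 and Klf6 lie above 0 at every point, whereas Jun, Fosb and Socs3 lie on both sides of 0.

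In clusters 0 and 1 the share of cells with a UMI of Jun or Socs3 ordered the 4 libraries as the CPM did. Every cell was thinned to 500 UMIs, which all cells reached. In cluster 1, 14.3% and 19.8% of cells had a Jun UMI in the SFB-negative libraries and 21.0% and 39.0% in the SFB-positive ones. In cluster 0 the shares were 2.41% and 1.55% against 4.19% and 3.17%. The 95% Wilson interval of the cluster 0 share in SFB-negative replicate 1 was 1.84% to 3.15%, and such intervals cover counting error only. Of clusters 0 to 4, cluster 3 had the lowest share of Jun in 2 of the 4 libraries, at 1.35% and 1.81% without SFB and 1.97% and 3.74% with SFB.

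Socs3 was found in 2.87% and 0.64% of cluster 0 cells without SFB and in 6.82% and 2.51% with SFB. In cluster 1 its shares were 4.12% and 1.19% against 9.17% and 3.11%. In SFB-negative replicate 1, 0 of 148 cluster 3 cells had a Socs3 UMI after thinning, which allows up to 2.03% of cells with a UMI at that depth and sets no limit on cells expressing the gene. The same cells held 2 Socs3 UMIs before thinning. No cell held a large part of the Socs3 UMIs in clusters 0 and 1: the most in 1 cell was 9 UMIs, and at most 2.59% of a library's Socs3 UMIs in either cluster came from 1 cell. No cell type among these clusters is known to lack the members, so a background share from free RNA was not measured.

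**Figure D5:**
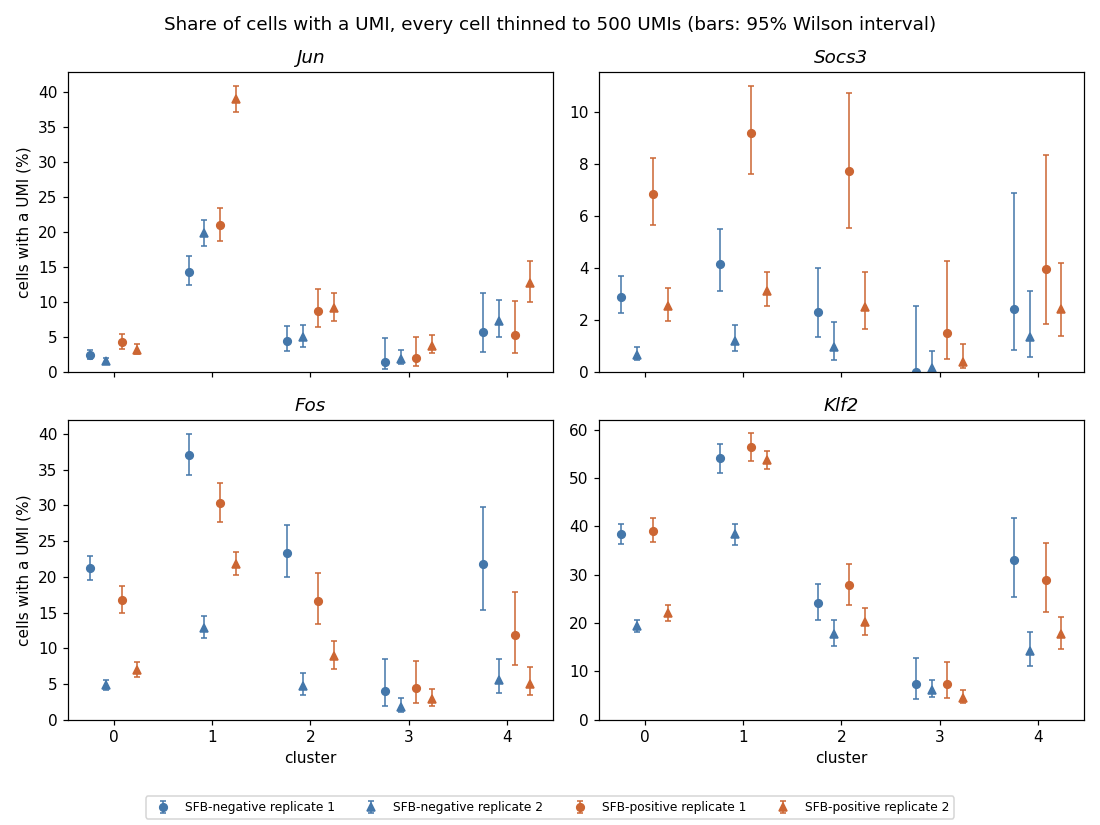
Share of cells with at least 1 UMI of Jun, Socs3, Fos and Klf2 in clusters 0 to 4 after every cell was thinned to 500 UMIs, with 95% Wilson intervals. In cluster 1 the Jun share is 14.3% and 19.8% in the SFB-negative libraries and 21.0% and 39.0% in the SFB-positive ones.

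Within cluster 1 the members were found together in part. Among cells with a Jun UMI at the thinned depth, Fos was found in 45.5%, 17.3%, 36.1% and 24.8% (SFB-negative 1 and 2, SFB-positive 1 and 2), against 35.7%, 11.8%, 28.8% and 19.9% of cells without one. Klf2 was found in 59.6%, 52.9%, 63.9% and 62.7% of cells with Jun against 53.2%, 34.7%, 54.4% and 47.9% of cells without. Socs3 showed no such direction: 5.13%, 0.822%, 8.82% and 2.75% of cells with Jun against 3.96%, 1.28%, 9.26% and 3.34% of the others. At least 5 of the 9 genes were found in 19.1% and 4.66% of cluster 1 cells without SFB and in 18.8% and 12.9% with SFB, whereas in cluster 3 this share was at most 0.121%.

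Across the 20 sums of library and cluster, centred within each library, Jun and Klf6 followed each other more closely (Pearson's r = 0.923) than Jun followed Junb (0.729), Ier2 (0.627) or Socs3 (0.629). Junb, Fos, Ier2 and Socs3 were close to one another, with r from 0.925 to 0.972. Among 3166 genes with at least 50 CPM on average, those most like Jun were Gem, a small GTP-binding protein (0.966), the co-chaperone Dnajb1 (0.921) and Klf4 (0.9). Those most like Socs3 were Fam43a (0.975), the cytokine receptor common chain Il2rg (0.973) and the class I gene H2-D1 (0.964). The nearest to Klf2 were Pnrc1 (0.977), Tsc22d3 (0.971) and Coq10b (0.971), to Klf6 Swt1 (0.897), Cxcr4 (0.881) and Sbds (0.875), and to Fosb the early activation marker Cd69, the NF-kB inhibitor Tnfaip3 and Klf4 (each 0.965). Fam43a (0.991), Coq10b (0.989) and Dennd4a (0.987) were nearest to Junb; Btg2 (0.97), 4930523C07Rik (0.97) and Pnrc1 (0.963) to Jund; Coq10b (0.971), 4930523C07Rik (0.968) and Btg2 (0.968) to Fos; and Rasgef1b (0.981), Ms4a4c (0.979) and Gpr183 (0.979) to Ier2. These values describe 20 sums that share libraries and the clusters built on such genes.

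Other genes of the pathways were read from lists. Of the other AP-1 family genes 9 of 13 were tested in cluster 1, and 1 was called: Batf, a partner of Jun proteins in lymphocytes, rose by 1.10 ± 0.24 (edgeR adjusted p = 0.026), where 0.130% of all genes were called higher. None of the 9, 9, 11 and 10 tested in clusters 0, 2, 3 and 4 was called, nor any of 9 with clusters 0 and 1 summed, and the list's median in cluster 1 was -0.04. Of 26 other immediate-early genes 25 were tested in each cluster and none was called, with a median difference of -0.20 to 0.15 over clusters 0 to 4. Of 14 inputs through SRF and MAP kinases 13 were tested, of 20 genes of the SOCS family and STAT3 pathway 18 or 19, and of 8 trafficking genes linked to Klf2 7 or 8, and none was called in any cluster. The medians were 0.02 to 0.35 for the SRF and MAP kinase inputs, 0.03 to 0.19 for the SOCS and STAT3 genes and -0.43 to 0.03 for the trafficking genes, beside -0.01 to 0.09 over all genes tested. Klf10, a TGF-beta-induced relative, was the one other Klf gene called: it fell by 1.17 in cluster 1 (SE 0.24, edgeR adjusted p = 0.013) and fell by 1.15 in cluster 4 (SE 0.32, edgeR adjusted p = 0.029), of 9 and 8 tested, where 0.851% and 1.25% of all genes were called lower. Without the block the adjusted p of Batf and Klf10 was 1.00.

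Heat shock genes moved with the SFB groups beside Jun and Socs3. Of 13 on the list, 3 rose in cluster 0, 1 in cluster 1, 3 in cluster 2, 3 in cluster 3 and 2 of 11 tested in cluster 4, and none fell. Of all genes tested, 0.236%, 0.130%, 0.258%, 0.375% and 0.282% were called higher in clusters 0 to 4. The heat shock list too was chosen with earlier results of these data known. Hspa1a, the inducible HSP70, rose by 1.48 ± 0.26 in cluster 0, 1.79 ± 0.34 in cluster 2, 1.87 ± 0.33 in cluster 3 and 1.10 ± 0.31 in cluster 4 (edgeR adjusted p from 4.4e-06 to 0.030). Hspa1b, its twin, rose by 1.64, 1.76, 2.63 and 2.07 in the same clusters, and since their sequences are nearly identical, reads could be split between them. Hspb1 rose by 1.17 in cluster 1 and 1.74 in cluster 2, and Hsph1 by 0.94 in cluster 0 and 1.17 in cluster 3. In cluster 4 Hspa1a and Hspa1b were lower with SFB in replicate 1 (-0.41 and -2.69) and higher in replicate 2 (2.27 and 2.48). The summed heat shock level in cluster 0 was 4457 and 2930.0 CPM without SFB and 6156 and 4149 CPM with SFB, and in cluster 1 15407 and 9387 CPM against 17797 and 17227 CPM. Without the block their adjusted p was 1.00 as well. These genes respond to warming and handling as well as to stimuli, and their part in the difference of Jun and Socs3 was not tested.

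Outside the tested clusters the levels are given without a test. In cluster 5 Jun measured 162.8 CPM in SFB-negative replicate 2 and 458.1 CPM in SFB-positive replicate 2, and Socs3 8.1 and 15.6 CPM. In the plasma-like cluster 6, with 30, 24 and 68 cells in SFB-negative replicate 2, SFB-positive replicate 1 and SFB-positive replicate 2, Jun measured 209.9, 141.9 and 539.5 CPM, and 37.3% of its UMIs in the first of these came from 1 cell. Socs3 had 0, 1 and 26 UMIs there. Among the barcodes that the cell table leaves out, Jun measured 513.4 and 229.1 CPM without SFB and 308.0 and 374.5 CPM with SFB, and Socs3 187.0 and 32.8 CPM against 161.8 and 57.2 CPM. In these barcodes both genes were lower with SFB in replicate 1 and higher in replicate 2, unlike in clusters 0 to 2.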

How the data were processed

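Cell Ranger 5.0.1 and mm10 are named in the submitters' processing notes; per the file headers the versions were 6.0.0 (replicate 1) and 7.0.0 (replicate 2). No source used here states whether introns were counted. The deposited matrices hold raw UMI counts. The authors' deposited table gives other items per cell, used here for the library code and cluster number, and the gene count per cell. Cells were taken as the table lists them; how doublets were treated is not given in the sources used here.

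UMI counts were summed per library and cluster and tested with edgeR 4.0.16 (R 4.3.3): filterByExpr, TMM, robust quasi-likelihood, SFB group plus replicate number, Benjamini-Hochberg over all genes tested, limit 0.05. The block is the batch seen in the headers; the deviations of same-numbered libraries correlated at 0.75 to 0.87 over genes in clusters 0 to 4. CPM are per 1000000 UMIs of the sum; log2 differences are after TMM. Leaving TMM out (a choice made after seeing the data) moved the median of all genes by 0.13 to 0.22. The dependence on clusters was tested in 1 edgeR model of 20 sums. The median prior degrees of freedom of edgeR, the weight of all genes in a gene's spread, were infinite in clusters 0, 2, 3 and 4. In cluster 1 they were 20.1. The edgeR steps were run on simulated counts with the same spread for every gene, which checks the code and not the calls made here. DESeq2 1.42.0 was an alternative.

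Tables were made with Python 3.11.15, pandas 2.3.3 and scipy 1.17.1. The text names all members, the 3 genes most correlated with each (log2 of CPM + 10), and up to 3 called genes per list and cluster by adjusted p. The members and lists were chosen with earlier results of these data known. Mrtfa was not matched by that name.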

Additional observations from a re-analysis of the deposited data

Results flagged for a closer look

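The difference between SFB-positive and SFB-negative libraries depended on the cluster for 3 of the 9 members, by the edgeR test of all cluster-by-SFB terms together. The adjusted p was 5.4e-04 for Klf2, 0.0031 for Jund and 0.0121 for Klf6. In each of the 3 the difference was highest in cluster 1 and lowest in cluster 4, and none of the 3 genes was called within a single cluster. The split of cluster 1 from cluster 0 rests in part on Klf2 itself, and its part in the dependence was not tested.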

How the results depend on the processing

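Socs3 and Jun were above 0 in clusters 0 to 4 under the alternatives that kept the 4 libraries, apart from Socs3 in cluster 3 in cells under 3000 genes, where it did not pass the low-count filter and has no value. The reported fits called 229, 98, 102, 133, 130 genes and 2, 1, 1, 0, 0 members in clusters 0 to 4. With DESeq2 size factors, the log2 difference took the other sign for Klf2 0.017 in cluster 0, Ier2 0.041 in cluster 1, Klf6 0.0096 in cluster 2 and Klf2 -0.013 in cluster 3. There, members called became 2 in cluster 1. With the DESeq2 test, the log2 difference took the other sign for Klf2 0.017 in cluster 0, Ier2 0.041 in cluster 1, Klf6 0.0013 in cluster 2 and Klf2 -0.0097 in cluster 3. There, members called became 0 in clusters 0 and 2. There, all genes called became 5 in cluster 0, 7 in cluster 1, 5 in cluster 2, 5 in cluster 3, 4 in cluster 4. In cells under 3000 genes, the log2 difference took the other sign for Fos 0.20, Klf6 0.079 in cluster 2, Klf2 -0.14 in cluster 3 and Fos 0.023, Ier2 0.040, Klf6 0.014 in cluster 4. There, members called became 1 in cluster 0, 0 in cluster 2. There, all genes called became 54 in cluster 2, 24 in cluster 3, 25 in cluster 4. With clusters 0 and 1 summed, the log2 difference took the other sign for Fos 0.19, Klf2 0.38 in cluster 0. With library totals and no TMM, the log2 difference took the other sign for Fos 0.0099, Klf2 0.12 in cluster 0, Junb 0.0078, Ier2 0.10 in cluster 1, Fos 0.12, Klf6 0.14 in cluster 2, Fos 0.077, Klf6 0.078 in cluster 3 and Ier2 0.079 in cluster 4. There, members called became 1 in cluster 0, 2 in cluster 1, 0 in cluster 2. There, all genes called became 57 in cluster 0, 32 in cluster 2, 44 in cluster 3, 47 in cluster 4. With no filter on low counts, the log2 difference took the other sign for Ier2 0.024 in cluster 1 and Klf2 -0.026 in cluster 3. There, members called became 1 in cluster 0, 2 in cluster 1, 0 in cluster 2. There, all genes called became 188 in cluster 1. With no replicate block, the log2 difference took the other sign for Fos -0.23 in cluster 1 and Ier2 -0.0068 in cluster 3. There, members called became 0 in clusters 0 to 2. There, all genes called became 0 in clusters 0 to 4. With no replicate block 0 members depended on the cluster, against 3 with it. Under library totals without TMM the split of higher and lower calls was 30 and 80 in cluster 1 and 20 and 27 in cluster 4, against 13 and 85 and 24 and 106 with TMM. The unblocked fits differ from the reported ones by the batch term alone; the cause of the other lost calls was not tested.

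Leaving out 1 library at a time was done without the block, so the group left with 1 library carries that library's batch and is assumed to vary like the other; no member was called in clusters 0 to 4 in these fits. The difference of Jun ranged over -0.043 to 0.89 in cluster 3. The difference of Junb ranged over -1.36 to 1.00 in cluster 0, -0.98 to 0.93 in cluster 1, -1.31 to 0.74 in cluster 2, -0.91 to 0.38 in cluster 3, -1.40 to 0.83 in cluster 4. The difference of Jund ranged over -1.21 to 1.26 in cluster 0, -0.89 to 1.40 in cluster 1, -1.26 to 0.86 in cluster 2, -0.83 to 0.64 in cluster 3, -1.32 to 0.82 in cluster 4. The difference of Fos ranged over -1.50 to 1.34 in cluster 0, -0.93 to 1.36 in cluster 1, -1.15 to 1.22 in cluster 2, -0.64 to 0.44 in cluster 3, -1.21 to 1.02 in cluster 4. The difference of Fosb ranged over -0.92 to 0.034 in cluster 0, -0.83 to 0.24 in cluster 1, -0.37 to 0.083 in cluster 3, -1.41 to 0.17 in cluster 4. The difference of Ier2 ranged over -1.38 to 1.02 in cluster 0, -1.04 to 1.12 in cluster 1, -1.02 to 0.69 in cluster 2, -0.48 to 0.56 in cluster 3, -1.15 to 0.98 in cluster 4. The difference of Klf2 ranged over -0.995 to 0.91 in cluster 0, -0.035 to 0.91 in cluster 1, -0.37 to 0.55 in cluster 2, -0.40 to 0.39 in cluster 3, -1.03 to 0.45 in cluster 4. The difference of Klf6 ranged over -0.57 to 0.62 in cluster 0, -0.29 to 0.25 in cluster 2, -0.44 to 0.26 in cluster 3, -0.73 to 0.33 in cluster 4. The difference of Socs3 ranged over -0.17 to 2.40 in cluster 0, -0.028 to 1.95 in cluster 2, -0.014 to 1.53 in cluster 4. All genes called ranged over 0 to 3, 0 to 2, 0 to 4, 0 to 7, 0 to 0 in clusters 0 to 4. The difference of Socs3 took the other sign in clusters 0, 2 and 4 without SFB-positive replicate 1, whose level was the highest of the 4 libraries. That unblocked fit set SFB-positive replicate 2 against both SFB-negative libraries, of which replicate 1 had the higher level. Within replicate 2 alone Socs3 was higher with SFB in clusters 0, 2 and 4, by log2 differences of 1.03, 0.78 and 0.48. Of 45 differences in thinned shares, 35 moved by less than 1 SD of the libraries at 1000 UMIs and 22 without thinning. In cluster 3 the replicate 1 libraries hold 2 and 29 Socs3 UMIs; whether depth kept Socs3 from a call there was not tested.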
